A study of Mus musculus with 6 samples.

Results

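The genes described here are 43 mouse genes that type I interferon switches on, chosen by name from knowledge of the pathway and measured in sorted T cells of mice that had accepted, were rejecting or had never received a skin graft. On the array, 40 of the 43 had a probe that could be named, and 34 passed a detection filter (1 or more of the 6 arrays with a detection p under 0.01), of which 28 were detected on all 6 arrays. These 34 stand beside 10679 detected genes and unnamed probes in all, called features below. Probes for Ifih1, Oas1a, Ifit1, Mx1, Ifi204 and Xaf1 were not detected on any array, and Herc6, Ifi203 and Ifi44 were not analysed here. Type I interferons bind the receptor pair Ifnar1 and Ifnar2, whose kinases Jak1 and Tyk2 activate Stat2. With Irf9, it forms part of a complex that binds interferon-stimulated response elements in promoters and turns on sensors of viral nucleic acid, enzymes that degrade or edit RNA, and proteins that block viral entry and release. T cells also respond to type I interferon, and its effect on them depends on when it arrives relative to the antigen signal.

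All recipients were male C57BL/6 mice, and the graft donors were BDF1 mice, the cross of C57BL/6 with DBA/2, which gave full-thickness tail skin. Tolerant recipients had received a donor specific transfusion together with the anti-CD40L antibody MR-1, which blocks a costimulatory signal, and were used on day 100 after grafting. Rejecting recipients were grafted without treatment and used on day 7, and naive mice were healthy and not grafted. T cells from spleen and lymph nodes of each status were cultured for 20 to 21 h with donor spleen cells depleted of T cells, and then sorted on CD3 and on CD69, a protein that appears on the surface of T cells soon after activation. One Illumina MouseWG-6 BeadChip array was used for the RNA of each combination, so 6 arrays carry 3 statuses times 2 fractions and none was repeated. Tolerant and rejecting cells differ in treatment and in time since grafting together, which cannot be told apart, and the labels do not say how many mice gave each RNA. The label text that describes the sort names the CD69+ gate in both places, so the fractions were taken from each sample's own cell type label.

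Between 12669 and 13469 probes were detected per array. Of 11 T cell markers with a probe, 10 were detected, among them Cd3d, Cd3e and Thy1 on all 6 arrays and Cd5 on 2, while Cd8a was not detected on any. Their summed linear level, given as log2, lay between 17.28 and 17.92 on every array, and the brightest probes weigh most in such a sum. In the limma fit described below 6 of the 10 were called lower in CD69+ cells, against 33.1% of all features, with a median difference of -0.45. Cd69 mRNA, the sort marker's own message, was above its CD69- partner in all 3 statuses, at 13.76 against 12.53 in naive, 13.31 against 11.21 in tolerant and 13.89 against 12.65 in rejecting cells. Markers that define plasmacytoid dendritic cells, the strongest makers of type I interferon, were not detected for 4 genes (Siglech, Ccr9, Klk1 and Cox6a2), and 3 other genes of that list (Tcf4, Irf8 and Ly6d) were detected. Of 8 named monocyte and macrophage markers 7 were not detected on any array, and Fcgr3 was detected on 1. Levels below are log2 intensities after background correction and quantile normalization, each level belongs to 1 probe, and levels of different genes cannot be set against each other. In such bulk RNA, fewer cells that express a gene and less RNA per cell cannot be told apart.

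The response element can be read in the promoters of several of the genes that differed most between rejecting and tolerant cells, so the 200 bases before the start of 4 of them are shown, from RefSeq (GRCm38.p6). They are the 4 with the largest difference among those whose window holds the core motif GAAANNGAAA (reverse TTTCNNTTTC, N any base), with each match in capitals.
Rsad2, chr12:26456453-26456652, minus strand: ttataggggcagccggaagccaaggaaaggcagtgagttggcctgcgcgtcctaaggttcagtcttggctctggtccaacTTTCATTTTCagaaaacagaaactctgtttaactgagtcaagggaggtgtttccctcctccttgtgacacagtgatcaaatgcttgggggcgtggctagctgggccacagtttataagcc
Ifit3, chr19:34583329-34583528, plus strand: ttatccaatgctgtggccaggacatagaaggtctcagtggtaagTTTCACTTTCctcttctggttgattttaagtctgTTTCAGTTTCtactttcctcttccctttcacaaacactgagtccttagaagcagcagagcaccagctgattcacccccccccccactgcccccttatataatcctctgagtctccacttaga
Isg15, chr4:156200819-156201018, minus strand: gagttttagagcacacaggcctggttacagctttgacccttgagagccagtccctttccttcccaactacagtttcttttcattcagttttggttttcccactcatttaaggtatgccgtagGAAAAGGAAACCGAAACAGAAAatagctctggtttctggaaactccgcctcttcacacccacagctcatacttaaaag
Oas3, chr5:120777660-120777859, minus strand: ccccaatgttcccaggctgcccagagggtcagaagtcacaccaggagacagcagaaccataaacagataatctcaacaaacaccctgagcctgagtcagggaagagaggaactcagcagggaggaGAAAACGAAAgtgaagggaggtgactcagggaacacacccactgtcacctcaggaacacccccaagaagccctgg
The match in Rsad2 begins 120 bases before the start, those in Ifit3 at 156 and 122 bases, and the one in Oas3 at 75 bases. In Isg15, 3 overlapping matches beginning 78, 72 and 66 bases before the start form 1 run. In windows of 300 bases (250 before to 50 after the start), the motif was found on either strand in 10 of the 24 detected genes of the set that have a promoter in the table, 41.7%. It was present for 1079 of all 27025 genes listed there, 3.99%, and among the 6844 detected features with a promoter 257 did, 3.76%. The median difference between rejecting and tolerant cells was 2.00 on the log2 scale in the 10 genes with the motif and 0.93 in the 14 without. A match is only a run of letters: Oasl2, Oasl1, Cmpk2 and Irf7 have none in their windows, and all 4 are described below among the genes with wide differences.

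Across the 6 arrays the set had 1 dominant shape. In both fractions the level was highest in rejecting, intermediate in naive and lowest in tolerant cells, and within a status the CD69- cells, those that had not put CD69 on their surface, mostly had more of these mRNAs than the CD69+ cells. The median of the 34 genes, each centred on its own mean, was -0.64 in naive, -0.97 in tolerant and 0.36 in rejecting CD69+ cells, and 0.71 in naive, -0.68 in tolerant and 1.31 in rejecting CD69- cells. The order rejecting above naive above tolerant held for 29 of 34 genes in the CD69+ arrays, 33 in the CD69- arrays and 28 in both, 82.4%. Of all features 5.02% had that order in both fractions. Oas2, Oas3 and Mx2 were counted as in order, but neither their naive nor their tolerant CD69+ level was detected. For these genes naive above tolerant in CD69+ cells rests on levels below detection. The genes out of order were Stat2, Trim25, Parp14, Samd9l and Ifi214 in CD69+ cells, where tolerant stood above naive, and Trex1 in CD69- cells.

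**Figure D1:**
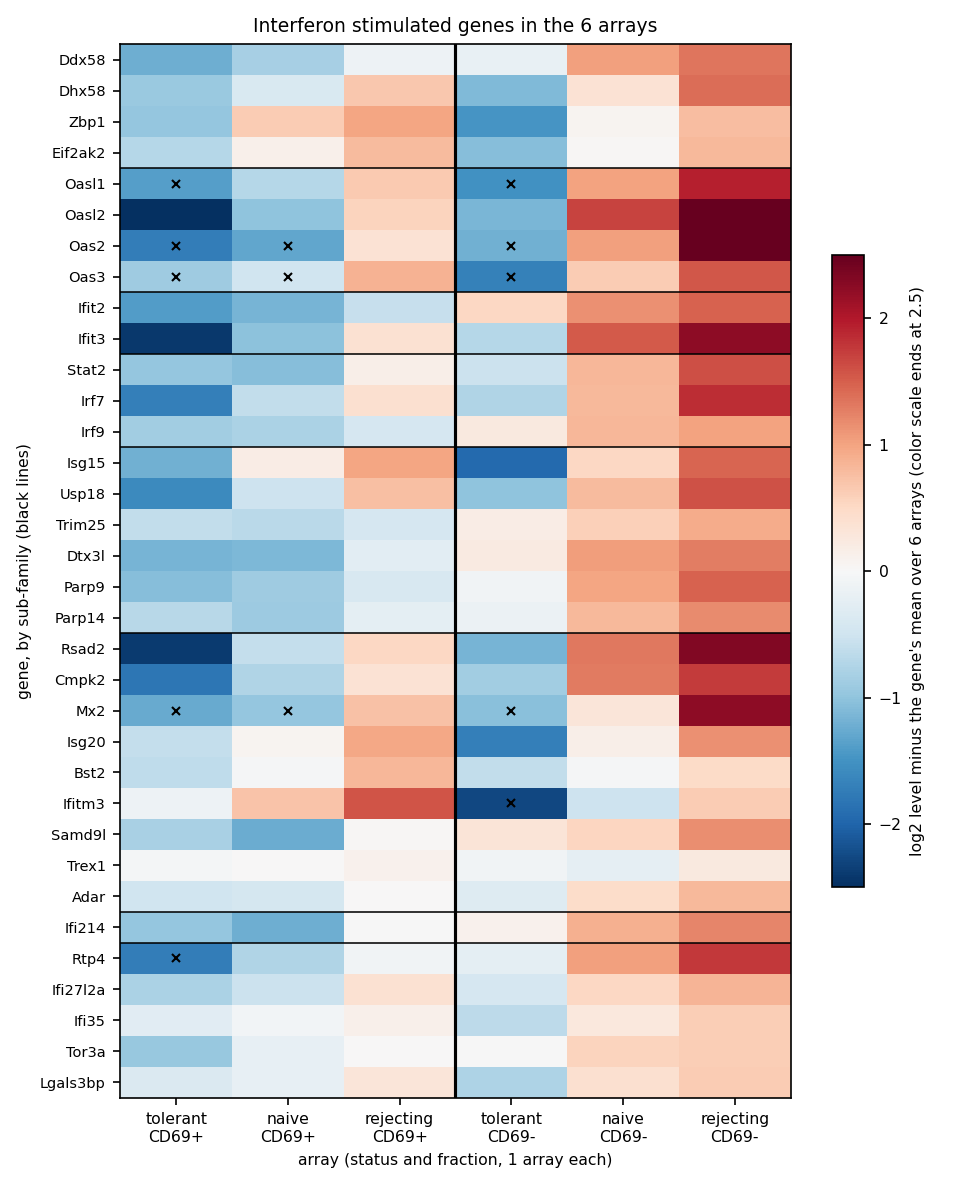
Log2 level of the 34 detected genes on the 6 arrays, each minus its own mean over the arrays, by sub-family; columns are status and fraction with 1 array each, and a cross marks a level whose probe was not detected there. The rejecting CD69- column is the highest for 31 of the 34 genes and a tolerant column the lowest for 28, while the 2 tolerant columns are the lowest pair for 16; the color scale ends at 2.5.

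The first comparison the sort allows is of cells with CD69 on their surface against cells without it. CD69+ and CD69- arrays were compared as 3 against 3 in 1 limma fit across all 10679 features, with status as a block and Benjamini-Hochberg adjustment, and a call means an adjusted p under 0.05. Of the 34 genes 22 were lower in CD69+ cells, against 33.1% of all features, and 2 were higher, Ifitm3 and Zbp1, against 29.6% of all features. The remaining 10 were not called: Dhx58, Eif2ak2, Oasl1, Oas3, Isg15, Isg20, Bst2, Trex1, Ifi35 and Lgals3bp. The median difference of the 34 genes was -1.07 on the log2 scale, and that of all features -0.05. The fit has 2 residual degrees of freedom, and its p-values measure the spread between these arrays only. Without the tolerant pair of arrays 28 genes were called lower, with Dhx58, Oasl1, Oas3, Isg15, Ifi35 and Lgals3bp added. Without the naive or the rejecting pair 17 were, with Stat2, Oas2, Mx2, Adar and Ifi27l2a lost each time. The call of Zbp1 was lost without any 1 of the 3 pairs, and its other detected probes were lower in CD69+ cells. In a limma fit without status as a block 10 were called lower and 0 higher, with 0 higher at an unadjusted p under 0.05 as well. The shares of all features called in these other fits are not given here. Their counts therefore describe how the calls moved and are not set against all features.

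The second comparison is between statuses, with 2 arrays against 2 in the same fit. The 2 arrays of a status are its CD69+ and CD69- fractions and not repeats. The SEs and p-values of status differences therefore do not measure the spread between recipients of a status. Rejecting cells had the higher level for all 34 genes, with a median difference from tolerant cells of 1.66 on the log2 scale, or 1.55 where undetected levels were replaced by the detection limit, while the median of all features was -0.01. No gene of the set was called in limma, with 0.0187% of all features called (2 of 10679). At an unadjusted p under 0.05 in that fit there were 32 of the 34. With an intensity trend and robust variance in limma, 18 of the 34 were called higher in rejecting cells, against 0.524% of all features. The authors' own normalized values gave 10, against 0.169% of all features. Among the 28 genes detected on all 6 arrays, whose place in the set does not rest on the arrays where they are high, the median difference was 1.25, and 7 were called in a fit of the features so detected, against 0.136% of those features. Which of these settings suits 6 unrepeated arrays was not tested. Tolerant cells stood below naive cells for 32 of the 34, with a median of -0.81, and 0 were called in limma, with 0.00936% of all features called and 21 genes of the set at an unadjusted p under 0.05. Rejecting cells stood above naive cells for all 34, with a median of 0.74, and again 0 were called in limma, with 0% of all features called and 21 at an unadjusted p under 0.05. The 3 status comparisons share arrays, so they are not independent of each other. Counts at an unadjusted p, here and below, stand without the share of all features at that p. They are therefore not read as a result about the genes counted.

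Ranked by the difference between rejecting and tolerant cells over both fractions, Oasl2 was the first of the 10679 features, Rsad2 the third and Ifit3 the fifth, all detected on all 6 arrays. Of the first 20 features 13 were genes of the set, 8 of them detected on all 4 arrays compared. The places of the other 5 rest on levels below detection, those of Oas2, Oas3, Oasl1 and Mx2 in both tolerant arrays and that of Ifitm3 in tolerant CD69- cells. From the low end of the tolerant and naive comparison, 9 of the first 20 features were genes of the set, 7 of them detected on all 4 arrays. Of the first 20 features of the rejecting and naive comparison 5 were, but 3 of these, Oas2, Oas3 and Mx2, were not detected in naive CD69+ cells.

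**Figure D2:**
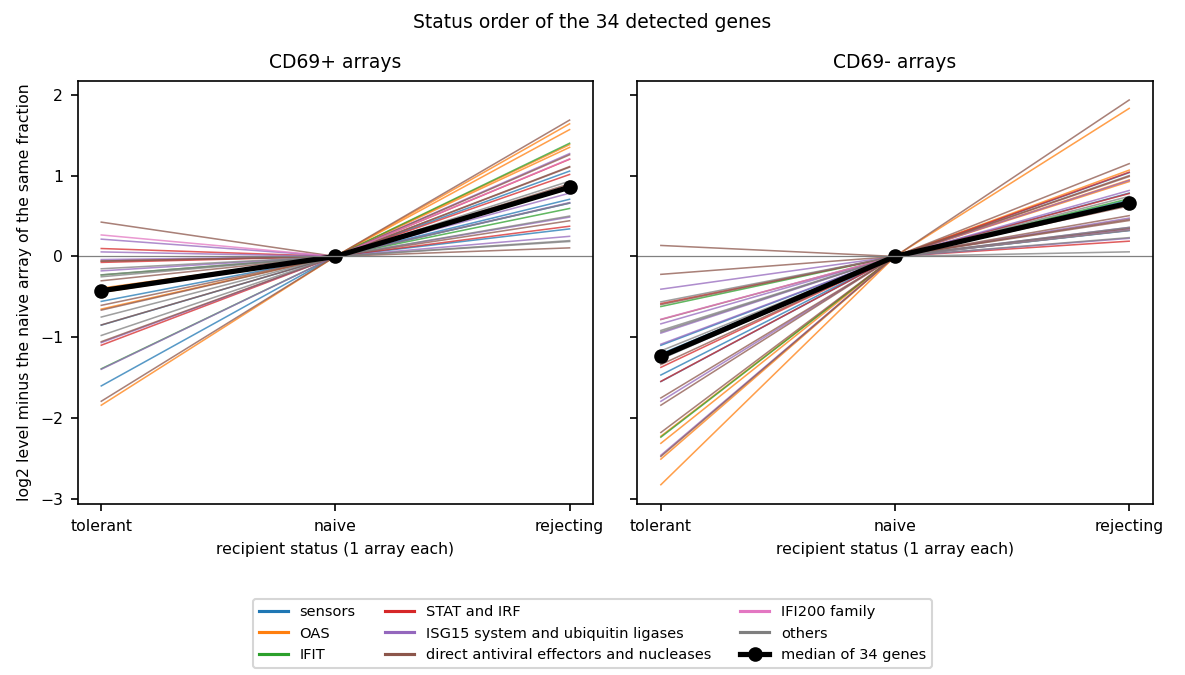
Log2 level minus that of the naive array of the same fraction, for the 34 detected genes (thin lines, colored by sub-family) and their median (black), with tolerant, naive and rejecting arrays on the horizontal axis. Medians run from -0.42 in tolerant to 0.86 in rejecting CD69+ cells and from -1.24 to 0.66 in CD69- cells.

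Each fraction was then read by itself, where a difference is between 2 single arrays and has no test; a difference was counted when it was at least 1.5-fold and the brighter array had a signal of at least 500, the sizes used in the study's own criteria. In CD69+ cells 22 of 34 genes were counted higher in rejecting than in tolerant cells (4.77% of all features), and in CD69- cells 31 (2.71%). Below naive cells, tolerant CD69+ cells had 11 of the 34 (6.29% of all features) and tolerant CD69- cells 25 (1.55%). Above naive cells, rejecting CD69+ cells had 21 (1.68% of all features) and rejecting CD69- cells 17 (1.22%). The difference between rejecting and tolerant cells was wider in the CD69- than in the CD69+ arrays for 32 of the 34 genes, with medians of 1.95 and 1.49. Across the 34 genes the 2 fractions' differences had a Pearson r of 0.869 and a Spearman rho of 0.858, a description of genes that share 4 arrays. The drop from naive to tolerant was wider in CD69- cells for 30 genes (medians -1.24 and -0.42), and the rejecting excess over naive was wider in CD69+ cells for 22 (medians 0.86 and 0.66).

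By their brightest probes, sensors of viral nucleic acid came in 2 patterns. Ddx58, which encodes the RNA sensor RIG-I, stood at 7.85 in naive, 7.45 in tolerant and 8.56 in rejecting CD69+ cells, and at 9.70 in naive, 8.49 in tolerant and 10.02 in rejecting CD69- cells. It was lower in CD69+ cells, with a called difference of -1.45 ± 0.18 (SE, 3 arrays a fraction, adjusted p 0.0026), and the CD69- level exceeded its CD69+ partner in every status. Dhx58, a relative of RIG-I known as LGP2 that lacks its signalling domains, stood at 9.71 in naive, 9.16 in tolerant and 10.77 in rejecting CD69+ cells, and at 10.45 in naive, 8.98 in tolerant and 11.49 in rejecting CD69- cells. Rejecting arrays were the highest of their fraction, and the tolerant pair was the only one in which CD69+ was not below CD69-. Zbp1, a sensor of Z-form nucleic acid, stood at 9.98 in naive, 8.37 in tolerant and 10.32 in rejecting CD69+ cells, and at 9.41 in naive, 7.86 in tolerant and 10.11 in rejecting CD69- cells, with both tolerant arrays below all 4 others. Its brightest probe was higher in CD69+ cells by 0.43 ± 0.13 (SE, adjusted p 0.034). Its other detected probes gave -0.89 and -1.25, each below 0 in naive, tolerant and rejecting mice. The higher call of Zbp1 therefore rests on its brightest probe alone. Eif2ak2, the kinase PKR that halts translation on double-stranded RNA, stood at 10.52 in naive, 9.66 in tolerant and 11.18 in rejecting CD69+ cells, and at 10.41 in naive, 9.31 in tolerant and 11.20 in rejecting CD69- cells, with the 2 fractions of a status close together. Its rejecting minus tolerant difference was 1.70 ± 0.15 (SE, 2 arrays a status, adjusted p 0.104 in limma, 0.00741 with the intensity trend).

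The oligoadenylate synthetase family, whose active members make the second messenger that switches on RNase L, had the widest status differences of any group, the median being 2.91 for rejecting minus tolerant cells, or 2.27 with undetected levels at the detection limit. Oasl2, an OAS-like gene, stood at 8.52 in naive, 6.67 in tolerant and 10.09 in rejecting CD69+ cells, and at 11.21 in naive, 8.39 in tolerant and 12.29 in rejecting CD69- cells, detected on all 6 arrays. Both rejecting arrays were above the naive and tolerant arrays of their fraction, and within each status CD69- was above CD69+. Between fractions its difference was -2.20 ± 0.21 (SE, adjusted p 0.00148), and between rejecting and tolerant cells 3.66 ± 0.26 (SE, adjusted p 0.0857, 0.00196 with the intensity trend). Oasl1, known in mouse as an inhibitor of Irf7 translation, was detected on 4 arrays, at 7.10 and 8.82 in naive and 8.49 and 9.77 in rejecting CD69+ and CD69- cells. Neither tolerant array detected it, so the rejecting level was at least 5.7-fold higher (adjusted p 0.19). Here and below, "at least" compares the bright arrays with the lowest detected signal of the dim ones, or with the probe's own level there where that is higher. Oas2 was detected in naive CD69- cells at 8.06 and in rejecting CD69+ and CD69- cells at 7.38 and 9.89. Its rejecting level was at least 4.06-fold above tolerant over both fractions (adjusted p 0.19), and at least 9.3-fold in the CD69- arrays alone. Oas3, whose promoter is shown above, was detected on the same 3 arrays, at 7.88, 8.11 and 8.81, at least 3.59-fold above tolerant (adjusted p 0.209).

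Both detected IFIT genes, which encode tetratricopeptide proteins that bind RNA or act in complexes restricting viral translation, had some of the widest fraction differences in the set. Ifit2 stood at 9.01 in naive, 8.78 in tolerant and 9.60 in rejecting CD69+ cells, and at 11.31 in naive, 10.69 in tolerant and 11.63 in rejecting CD69- cells. Its fraction difference was -2.08 ± 0.13 (SE, adjusted p 0.00086), and all 3 CD69- arrays lay above all 3 CD69+ arrays. Ifit3 stood at 11.63 in naive, 10.24 in tolerant and 13.04 in rejecting CD69+ cells, and at 14.19 in naive, 11.95 in tolerant and 14.90 in rejecting CD69- cells. The rejecting CD69+ level lay above the tolerant CD69- level for this gene. Its differences were 2.88 between rejecting and tolerant (SE 0.24, adjusted p 0.0857, 0.00278 with the intensity trend) and -2.04 between fractions (SE 0.20, adjusted p 0.0015). For Ifit2 the status difference was 0.89, much smaller than its fraction difference.

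The 3 transcription factors were all called lower in CD69+ cells. Stat2, a subunit of the complex that binds the response element, stood at 7.71 in naive, 7.81 in tolerant and 8.92 in rejecting CD69+ cells, and at 9.61 in naive, 8.24 in tolerant and 10.39 in rejecting CD69- cells. In CD69+ cells only the rejecting array stood apart, while in CD69- cells the 3 statuses were graded. Its fraction difference was -1.26 ± 0.30 (SE, adjusted p 0.0177). Irf9, the DNA-binding partner of Stat2, stood at 11.45 in naive, 11.37 in tolerant and 11.82 in rejecting CD69+ cells, and at 13.06 in naive, 12.48 in tolerant and 13.25 in rejecting CD69- cells. All CD69- arrays were above all CD69+ arrays (-1.38 ± 0.14, SE, adjusted p 0.00165), and rejecting exceeded tolerant by only 0.61. Irf7, which amplifies interferon alpha production and is itself an interferon target, stood at 8.65 in naive, 7.55 in tolerant and 9.67 in rejecting CD69+ cells, and at 10.07 in naive, 8.52 in tolerant and 11.11 in rejecting CD69- cells. Both its differences were wide, -1.27 ± 0.14 between fractions (SE, adjusted p 0.00202) and 2.35 ± 0.18 between rejecting and tolerant cells (SE, adjusted p 0.0857, 0.004 with the intensity trend).

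In the ISG15 system, Isg15 and Usp18 had wider status differences than the ligases. Isg15, a ubiquitin-like protein that is conjugated to other proteins, stood at 12.95 in naive, 11.56 in tolerant and 13.74 in rejecting CD69+ cells, and at 13.28 in naive, 10.81 in tolerant and 14.22 in rejecting CD69- cells. Rejecting exceeded tolerant by 2.18 in CD69+ and 3.40 in CD69- cells, and the mean fraction difference was -0.02 ± 0.27 (SE, adjusted p 0.958), with the tolerant pair above 0 and the other pairs below. Usp18, which removes Isg15 from proteins and restrains signalling at the interferon receptor, stood at 11.39 in naive, 10.33 in tolerant and 12.67 in rejecting CD69+ cells, and at 12.70 in naive, 10.91 in tolerant and 13.52 in rejecting CD69- cells. It was lower in CD69+ cells, with a difference of -0.91 ± 0.17 (SE, adjusted p 0.00841), and its rejecting minus tolerant difference was 2.48 ± 0.21 (SE, adjusted p 0.0857, 0.0031 with the intensity trend). Trim25, a ubiquitin ligase that helps activate RIG-I, Dtx3l and Parp9, partners in a ligase complex, and Parp14, an ADP-ribosyltransferase, were all called lower in CD69+ cells, with differences of -1.14, -1.70, -1.57 and -1.23. Their rejecting minus tolerant differences were smaller than those of Isg15 and Usp18, at 0.47, 0.98, 1.11 and 0.88. The second brightest Dtx3l probe, detected on all 6 arrays, gave only -0.39 between fractions and 0.08 between rejecting and tolerant cells. That probe also gave other signs in some status comparisons, values that stand with the processing results.

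Proteins that act directly on viruses or nucleic acids formed the largest group, 9 of 10 with a detected probe. Rsad2, known as viperin, which makes a chain-terminating nucleotide, stood at 9.55 in naive, 7.76 in tolerant and 10.66 in rejecting CD69+ cells, and at 11.46 in naive, 8.98 in tolerant and 12.45 in rejecting CD69- cells. The tolerant CD69+ array was the lowest of the 6 and the rejecting CD69- array the highest. Its rejecting minus tolerant difference of 3.18 ± 0.21 (SE, adjusted p 0.0857, 0.00196 with the intensity trend) came with a tolerant minus naive difference of -2.14 ± 0.21 (SE, adjusted p 0.333, 0.0234 with the intensity trend). Cmpk2, a nucleotide kinase, stood at 7.91 in naive, 6.85 in tolerant and 9.02 in rejecting CD69+ cells, and at 9.96 in naive, 7.78 in tolerant and 10.40 in rejecting CD69- cells. Its 6 arrays fell in the same order as those of Rsad2. Mx2, annotated in the gene table as a transcribed pseudogene and related to the Mx antiviral GTPases, was detected in naive CD69- (6.92) and in rejecting CD69+ and CD69- cells (7.33 and 8.86). No tolerant array detected it, and rejecting cells had at least 2.78-fold more (adjusted p 0.14).

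Isg20, an exonuclease that degrades RNA, stood at 8.82 in naive, 8.15 in tolerant and 9.72 in rejecting CD69+ cells, and at 8.89 in naive, 7.05 in tolerant and 9.89 in rejecting CD69- cells, with tolerant CD69- cells the lowest. Bst2, the tetherin that holds budding virus at the cell surface, stood at 11.39 in naive, 10.79 in tolerant and 12.25 in rejecting CD69+ cells, and at 11.39 in naive, 10.79 in tolerant and 11.90 in rejecting CD69- cells, nearly the same in the 2 fractions of the naive and of the tolerant mice. Ifitm3, which blocks viral fusion in endosomes, went the other way between fractions, at 8.85 in naive, 7.996 in tolerant and 9.70 in rejecting CD69+ cells, and at 7.62 in naive and 8.76 in rejecting CD69- cells, with no detection in tolerant CD69- cells. It was higher in CD69+ cells by 1.43 ± 0.26 (SE, adjusted p 0.00713), the widest of the 2 higher calls, with detection on 5 of the 6 arrays, and by 1.16 with the undetected level at the detection limit. Its status order was that of the others, with rejecting over tolerant at 1.70 in the CD69+ arrays and at least 4.26-fold in the CD69- arrays. Samd9l, a large cytoplasmic antiviral protein, stood at 11.66 in naive, 12.08 in tolerant and 12.92 in rejecting CD69+ cells, and at 13.43 in naive, 13.21 in tolerant and 14.06 in rejecting CD69- cells. Among the genes called lower in CD69+ cells (-1.34 ± 0.17, SE, adjusted p 0.00275), it was the one whose tolerant mean was not below its naive mean. Adar, which edits adenosine to inosine in double-stranded RNA, was lower in CD69+ cells, with a difference of -0.63 ± 0.18 (SE, adjusted p 0.0318), and its rejecting minus tolerant difference was 0.81. Trex1, a DNA exonuclease that limits sensing of self DNA, stood at 10.70 in naive, 10.64 in tolerant and 10.81 in rejecting CD69+ cells, and at 10.47 in naive, 10.61 in tolerant and 10.93 in rejecting CD69- cells, the narrowest range of the set.

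Of the remaining genes, Rtp4, a chaperone for receptor trafficking, was detected on 5 arrays, at 7.29 in naive and 7.96 in rejecting CD69+ cells, and at 9.07 in naive, 7.80 in tolerant and 9.82 in rejecting CD69- cells. It was not detected in tolerant CD69+ cells, and its fraction difference was -1.71 ± 0.13 (SE, adjusted p 0.00104). Ifi214, a member of the IFI200 family that holds several cytosolic DNA sensors, stood at 7.95 in naive, 8.21 in tolerant and 9.16 in rejecting CD69+ cells, and at 10.06 in naive, 9.28 in tolerant and 10.39 in rejecting CD69- cells, and was lower in CD69+ cells, with a difference of -1.47 ± 0.23 (SE, adjusted p 0.005). Ifi27l2a and Tor3a were also called lower in CD69+ cells, with differences of -0.63 and -0.76, while Ifi35 and Lgals3bp were not called, at -0.15 and -0.17. Rejecting minus tolerant differences of these 4 were 1.22, 0.78, 0.84 and 1.03.

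**Figure D3:**
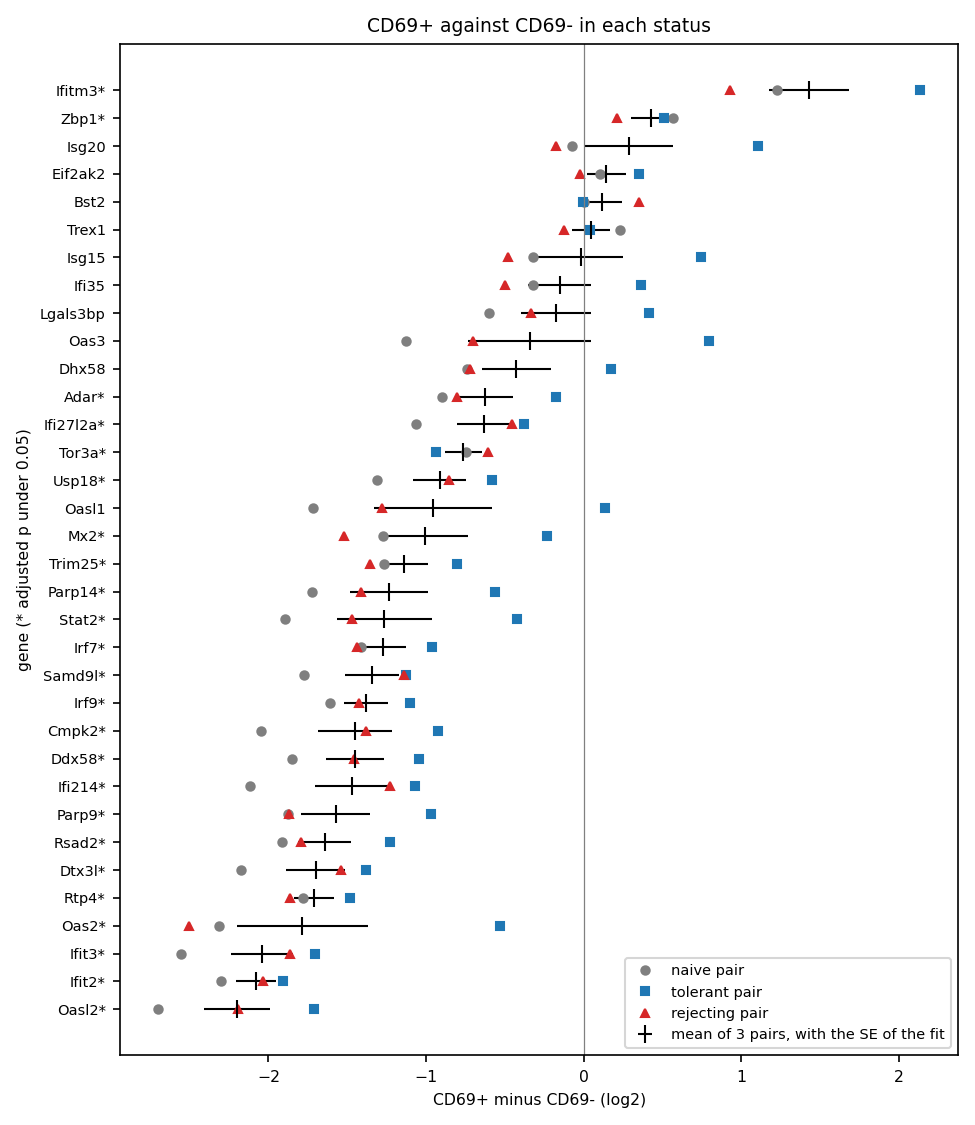
CD69+ minus CD69- difference (log2) of each detected gene in the naive (circles), tolerant (squares) and rejecting (triangles) pair of arrays, with the mean of the 3 pairs and the SE of the fit; a star marks an adjusted p under 0.05 in limma. Most squares lie to the right of the circle and triangle of the same gene, and Ifitm3 and Zbp1 are the 2 starred genes above 0.

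For most genes the CD69+ level stood higher relative to the CD69- level in tolerant mice than in the other statuses. The counts below include genes with undetected levels on some arrays. Of the 34 genes, CD69+ was counted at least 1.5-fold below CD69- for 22 in naive mice (21.0% of all features), 8 in tolerant mice (17.1%) and 23 in rejecting mice (18.4%), and the medians were -1.36, -0.55 and -1.26. These counts also required the signal minimum given above. Without that minimum 15 genes were counted in tolerant mice, so the 8 rests in part on it. The medians do not use the signal minimum. In 30 of 34 genes the signed tolerant gap, CD69+ minus CD69-, lay above both the naive and the rejecting gap. A higher signed gap is not always a smaller one. For Ifitm3 it was 2.136 in tolerant mice, against 1.23 in naive and 0.932 in rejecting mice. The median of tolerant minus naive gap was 0.80 over the 34 genes and 0.006 over all features, and that of tolerant minus rejecting gap was 0.48 over the 34. Oasl1, Oas3, Dhx58, Isg15, Isg20, Ifi35 and Lgals3bp had CD69+ above CD69- in tolerant mice only, and for Oasl1 and Oas3 both tolerant levels were below detection. With 1 array per status and fraction, this difference of differences has no residual spread and was not tested. The CD69- tolerant array also had the lowest Cd69 level of all 6.

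Hemoglobin messages shared part of the shape of these genes. Of 5 listed red cell genes 4 had a named probe, and Alas2 was not detected on any array. The summed linear level of the other 3 (Hba-a1, Hbb-bt and Hbb-bs), given as log2, was 12.40 in naive, 10.30 in tolerant and 12.34 in rejecting CD69+ cells. In CD69- cells it was 15.19, 11.40 and 14.83. These hemoglobin sums were thus lowest in tolerant and higher in CD69- cells, as many of the interferon genes were, but rejecting did not exceed naive. The sums of class II and of B cell markers went another way, highest in tolerant CD69+ cells. The summed linear level of 4 detected class II and dendritic markers (H2-Ab1, H2-Eb1, Cd74 and Zbtb46), given as log2, was 12.40 there and between 9.81 and 11.81 elsewhere. That of Cd79b and Blk was 10.89 there against 9.18 to 10.11 elsewhere. Singly, Zbtb46 was highest in naive CD69+ cells, at 7.01 against 6.72 in tolerant CD69+ cells. Cd79b was no higher in tolerant CD69+ cells, at 9.915, than in tolerant CD69- cells, at 9.950. The other 5 listed class II and dendritic genes, Itgax, Flt3, Xcr1, H2-Aa and Ciita, were not detected on any array. Mzb1, a plasma cell marker, was 11.44 in tolerant CD69+ cells and between 6.77 and 8.11 elsewhere, while Jchain, Sdc1 and Prdm1 were not detected and Xbp1 was 13.48 in tolerant CD69+ cells against 13.55 and 13.74 in naive and rejecting CD69+ cells. Ms4a1, Pax5, Cd22, Fcer2a, Cr2 and Ebf1, defining B cell genes, were not detected on any array. The part of these cells in the interferon gene differences was not tested.

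The study defined candidate rejection genes by at least 1.5-fold more signal in rejecting than in tolerant CD69+ cells, at least 1.5-fold more in CD69+ than in CD69- cells of rejecting mice, and a signal of at least 500 in rejecting CD69+ cells. Of the 34 genes 28 met the first criterion (8.06% of all features) and 28 the signal criterion (62.4%), but 1 met the criterion between fractions (26.3%). That gene, Ifitm3, met all 3, against 2.69% of all features (287 of 10679). Candidate tolerance genes needed at least 1.5-fold more signal in tolerant than in naive CD69+ cells. They also needed at least 1.5-fold more in CD69+ than in CD69- cells of tolerant mice, and a signal of at least 500 in tolerant CD69+ cells. Of these, 0 of 34 met the first criterion (14.5% of all features), 4 the criterion between fractions (23.6%) and 18 the signal criterion (65.5%). None of the 34 met all 3, against 1.90% of all features (203 of 10679).

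The upstream genes of the pathway had the status order of the set in part. Of 16 listed type I ligand genes 13, Ifnb1 among them, were not detected on any array. Ifna6 and Ifnab were detected on all 6 arrays, from 7.25 to 7.76 and from 9.27 to 9.90, with rejecting minus tolerant differences of 0.28 and 0.11. Ifnz was detected on 1 array. The alpha interferon genes are close copies of each other, so probes may not tell them apart. The receptor chain Ifnar1 was not detected, and Ifnar2 stood at 8.93 in naive, 9.61 in tolerant and 9.27 in rejecting CD69+ cells, and at 9.30 in naive, 9.37 in tolerant and 9.24 in rejecting CD69- cells. Over 25 detected pathway genes outside the set, 9 were called lower and 7 higher in CD69+ cells (33.1% and 29.6% of all features), 0 were called in any status comparison in limma (10, 8 and 2 at an unadjusted p under 0.05 for rejecting against tolerant, tolerant against naive and rejecting against naive), and the median rejecting minus tolerant difference was 0.04. The order rejecting above naive above tolerant in both fractions held for 8 of the 25, 32.0%, against 5.02% of all features.

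Among the kinases, Jak1 stood at 6.30 in naive, 7.59 in tolerant and 6.99 in rejecting CD69+ cells, and at 8.17 in naive, 9.22 in tolerant and 8.28 in rejecting CD69- cells, not detected in naive CD69+ cells, and was called lower in CD69+ cells (-1.60 ± 0.15, SE, adjusted p 0.00143). Its tolerant levels were the highest of each fraction, opposite to the order of the interferon targets. Tyk2 was called higher in CD69+ cells (0.53 ± 0.12, SE, adjusted p 0.0159). Irf1 and Irf2, an activator and a repressor at related sites, were called lower in CD69+ cells, with differences of -1.19 and -1.27. Irf8 was called higher by 2.89, Irf5, not detected on any CD69- array, was at least 2.74-fold higher (adjusted p 0.00069), and Irf3, which sensors activate by phosphorylation, was not called (0.18). Irf8 stood at 11.27 in naive, 10.12 in tolerant and 11.20 in rejecting CD69+ cells, and at 8.51 in naive, 6.98 in tolerant and 8.42 in rejecting CD69- cells, with both tolerant arrays the lowest of their fraction.

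Of the sensing genes, Tlr7, an endosomal receptor for single-stranded RNA, stood at 7.43 in naive, 7.11 in tolerant and 8.33 in rejecting CD69+ cells, and at 8.50 in naive, 7.10 in tolerant and 9.05 in rejecting CD69- cells, and its rejecting minus tolerant difference was 1.59 ± 0.28 (SE, adjusted p 0.197). The adaptors Myd88, Ticam1 and Mavs had rejecting minus tolerant differences of 0.31, -0.41 and -0.03, and Sting1 and Cgas, of the DNA sensing route, had 0.14 and 0.61. Among inhibitors, Socs1 and Socs3, which block JAK signalling and are induced by it, had rejecting minus tolerant differences of 1.09 and 1.48 and Ptpn2, a phosphatase of JAK and STAT proteins, 1.04, none called. Socs3 was lower and Ptpn2 higher in CD69+ cells, by called differences of -2.39 and 1.85. Ptpn2 was not detected in tolerant CD69- cells, and with that level at the detection limit its differences were 0.90 between rejecting and tolerant cells and 1.76 between fractions.

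Interferon gamma, the type II interferon made by activated T cells, signals through its own receptor and shares some targets with type I interferon. Ifng itself stood at 13.84 in naive, 10.76 in tolerant and 13.52 in rejecting CD69+ cells and at 8.08, 6.79 and 7.46 in the CD69- cells, the highest in the naive array of each fraction. The difference between fractions was 5.26 ± 0.43 (SE, adjusted p 0.00115). Of 16 detected genes of the interferon gamma list 10 were called lower and 2 higher in CD69+ cells (33.1% and 29.6% of all features), and 0 were called between statuses in limma (7, 6 and 0 at an unadjusted p under 0.05 in the same 3 comparisons). Their median rejecting minus tolerant difference was 0.62, with 15 of 16 above 0, and their median rejecting minus naive difference 0.19. Ifng and its receptor genes Ifngr1 and Ifngr2 are counted among the 16. Gbp2, an interferon-induced GTPase, had 1.24 between rejecting and tolerant, Irgm1 0.76 and Tap1, the peptide transporter, 0.26. Cxcl10, a chemokine that both interferon types induce, had the widest rejecting minus tolerant difference of the list, 3.62 in CD69- cells against 0.66 in CD69+ cells. The order rejecting above naive above tolerant in both fractions held for 3 of the 16, 18.8%, against 5.02% of all features.

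**Figure D4:**
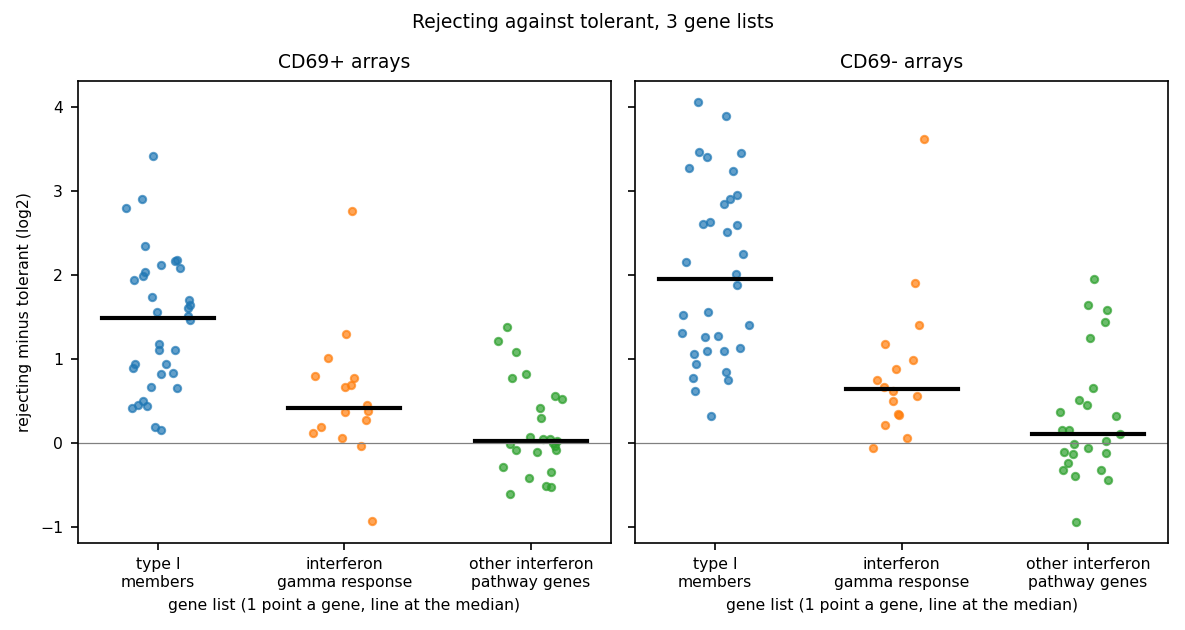
Rejecting minus tolerant difference (log2) in the CD69+ and CD69- arrays for 34 type I interferon genes, 16 genes of the interferon gamma list and 25 other interferon pathway genes. The interferon gamma list, labelled as a response, also holds Ifng itself and its receptor genes Ifngr1 and Ifngr2. Each point is 1 gene measured on 1 array per status, and the bar is the median. All type I points lie above 0, and the pathway genes lie on both sides of it.

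Other named genes shared the shape. Outside the set, 304 named genes had the order rejecting above naive above tolerant in both fractions with a signal of at least 500 on the brightest array. Ranked by the smaller of their rejecting minus tolerant differences in the 2 fractions, the first 10 were Tgm2, Sdc3, Selp, Igfbp4, Pros1, Rnf213, Socs3, Gm4951, Trim30a and Egln3. Tgm2, a transglutaminase, had 1.79 in CD69+ and 2.35 in CD69- cells, and 11 genes of the set stood above it by that measure. Trim30a had 1.35 and 1.65, and Selp, the adhesion molecule P-selectin, 1.65 and 2.07. Rnf213, a large ubiquitin ligase, had 2.19 in CD69- cells but was not detected in tolerant CD69+ cells, where rejecting cells had at least 1.71-fold more, so its place among the 10 rests on a level below detection.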

How the data were processed

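RNA of the 6 sorted fractions was hybridised to MouseWG-6 arrays. Per the file headers, the authors deposited for each probe on each array a non-normalized intensity with its detection p-value. A second deposited table holds the authors' normalized intensity of the same arrays, linear, with a median of 168.3 in every array, in the same probe order of brightness (rank correlation 1); its normalization is not given in the sources used here. GenomeStudio 2009.2 is named in the submitters' processing notes. Neither slide nor scan date is given, so a batch could not be tested.

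From the non-normalized intensity, background was corrected with limma 3.58.1 in R 4.3.3 (normexp with negative controls inferred from the detection p-values, offset 16), followed by quantile normalization and log2. Of 45281 probes 34885 carry 1 gene symbol in the platform annotation, 18 several and 10378 are not listed there. Each gene was represented by its brightest probe, kept where its detection p was under 0.01 on at least 1 array, which left 10679 features, 8339 named and 2340 unnamed. One limma fit with status and fraction as additive terms gave every tested comparison, with Benjamini-Hochberg adjustment over all features and a threshold of 0.05. The same script was tested on simulated data. No sample was dropped or imputed. The status of a recipient is shared by its CD69+ and CD69- arrays, and is in the fit as the block. The number of arrays limits the precision: the SD of a difference between 2 arrays was 0.232 on the log2 scale at the median feature.

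The gene set, the sub-families, the other lists and the alternatives were chosen with earlier results of these data known. The text names all genes of the set, and of the other lists those with the values that a group turns on. Outside the lists it names the 10 genes with the set's order in both fractions, a signal of at least 500 and the largest smaller difference. Promoters are those of RefSeq on GRCm38.p6. Alternatives covered the authors' values, background correction, offset, array scaling, detection filter, probe choice, block, variance model, arrays left out, fold and signal minimum.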

Additional observations from a re-analysis of the deposited data

Results flagged for a closer look

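For 5 genes the CD69+ minus CD69- difference had one sign in tolerant mice and the opposite sign in both naive and rejecting mice. In tolerant mice it was 0.175 for Dhx58, 0.743 for Isg15, 1.105 for Isg20, 0.367 for Ifi35 and 0.416 for Lgals3bp on the log2 scale, and all 5 were below 0 in the other statuses. Each value rests on 1 pair of arrays and the difference between statuses was not tested.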

How the results depend on the processing

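Calls for status comparisons depended most on the processing. In the main limma fit 0 genes of the set were called higher in rejecting than in tolerant cells. An intensity trend with robust variance gave 18, against 0.524% of all features. The authors' value table gave 10, against 0.169% of all features. Among features detected on all 6 arrays 7 were called, against 0.136% of those features. Without background correction the count was 10, and with an offset of 50 it was 7. For these and for the other alternatives below, the shares of all features are not given. Their counts describe how the calls moved and are not set against all features. With the intensity trend 3 were called lower in tolerant than in naive cells. The median rejecting minus tolerant difference was 1.237 (both fractions), 0.887 (CD69+) and 1.536 (CD69-) with the authors' values and also without background correction, where tolerant minus naive in CD69- cells was -0.946. It was 1.251, 1.109 and 1.465 among features detected on all 6 arrays and also with no detection filter, which adds 6 undetected genes. Between fractions the main fit pairs the 2 arrays of a status (22 lower and 2 higher), and without that block 10 were called lower and 0 higher; 1 was called higher with the second brightest probes and among features detected on all 6 arrays. Leaving out 1 status pair in turn gave 17 to 28 lower and 1 higher, and the ranges crossed 0 for Bst2 (-0.0 to 0.179), Ifi35 (-0.41 to 0.022), Isg15 (-0.4 to 0.211), Isg20 (-0.124 to 0.516), Lgals3bp (-0.467 to 0.041), Oas3 (-0.913 to 0.049) and Trex1 (-0.042 to 0.135), none of them called in the main fit. With arrays centred on their medians the fraction difference was 0.069 for Ifi35, 0.2 for Isg15 and 0.07 for Lgals3bp, 5 genes were counted higher in CD69+ cells of tolerant and 2 of rejecting mice, the rejecting median was -0.986, and 2 genes met the rejection criteria. That scaling moved the median of all features by up to -0.199 (rejecting minus naive, CD69- cells). The second brightest probe reversed Zbp1 between fractions (-0.894), tolerant minus naive for Dtx3l (0.082, and 0.256 in CD69- cells), Ifi214 (0.024) and Trex1 (-0.051), rejecting minus tolerant in CD69+ cells for Dtx3l (-0.034), and rejecting minus naive there for Ddx58 (-0.144) and Dtx3l (-0.126). A 2-fold minimum left 7 lower in tolerant than naive CD69+ cells, 11 and 6 higher in rejecting than naive CD69+ and CD69- cells, and 0 higher in CD69+ cells of tolerant and of rejecting mice. Without a signal minimum 15 were lower and 4 higher in CD69+ cells of tolerant mice. With detection on all 6 arrays 0 were higher in CD69+ cells of naive and of rejecting mice, and with no filter the rejecting fraction median was -0.828. The cause of these changes was not tested beyond the fewer or added genes named. Of 361 counts and medians 320 stayed within the limits set, and of 3245 single gene values 19 reversed.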
